A study of Homo sapiens with 15 samples.

Results

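ASNS, PCK2 and CBS code for 3 enzymes of amino acid and carbon metabolism. They were selected on their lower counts after doxycycline, with earlier results of these data known, and were read by name from the table of 12575 genes that holds untreated, day 3 and day 7 libraries. All 3 are listed there and all 3 passed the filter on low counts. A second table of 15230 genes holds untreated and day 7 libraries only. PCK2 alone was read from it, since ASNS had 1 to 8 unique molecular identifiers (UMIs, 1 per counted transcript molecule) per library there and CBS is not listed in it. Because the falls with doxycycline chose the genes, their changes with doxycycline are given below as descriptions, without a test, except within the b1 samples, none of which is in that first table.

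The cells were immortalized human astrocytes (IHA), a fetal line carrying SV40, cultured with 10% serum, glutamine and 10 ng/ml EGF. Expression of IDH1-R132H, a mutant of the cytosolic isocitrate dehydrogenase that makes 2-hydroxyglutarate, was induced with doxycycline at 1 µg/ml, and the controls received none. The genotype label reads WT IDH1 in all 15 samples. The titles carry a tag, b1 or b2, whose meaning the labels do not give: 3 untreated and 1 day 7 sample carry b1, and 3 untreated, 4 day 3 and 4 day 7 samples carry b2. None of the samples is labelled as given doxycycline without the inducible gene, so the drug and the gene cannot be told apart, and the untreated samples have no day. The sources used here name neither the promoter of the induced gene nor whether the cells are a clone. Nothing in the labels tells whether replicates came from separate cultures, and p-values therefore measure only the spread between the libraries, which may be technical.

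ASNS, asparagine synthetase, makes asparagine from aspartate with glutamine as the nitrogen donor. PCK2, the mitochondrial phosphoenolpyruvate carboxykinase, turns oxaloacetate into phosphoenolpyruvate. CBS, cystathionine beta-synthase, joins homocysteine to serine in the opening step of transsulfuration, the route to cysteine. Cells short of an amino acid load the kinase GCN2 (EIF2AK4) with uncharged tRNA, the translation factor eIF2 is phosphorylated, and translation of the transcription factor ATF4 rises. ATF4 with a C/EBP partner binds composite elements in its target genes, and ASNS is a textbook target of this amino acid response. Astrocytes are known as the main site of de novo serine synthesis in the brain, which supplies a substrate of CBS.

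The bases just upstream of each gene's start are printed because the composite element has a known sequence. In RefSeq on GRCh38.p14, the 250 bases before the start lie at chr7:97872409-97872658, minus strand for ASNS, at chr14:24094061-24094310, plus strand for PCK2 and at chr21:43076378-43076627, minus strand for CBS, each the first of its windows in the table, 5′ to 3′. Capitals mark matches to TGATGNAA, the core of the composite element, and to GTTACA, the second element known in ASNS.
ASNS: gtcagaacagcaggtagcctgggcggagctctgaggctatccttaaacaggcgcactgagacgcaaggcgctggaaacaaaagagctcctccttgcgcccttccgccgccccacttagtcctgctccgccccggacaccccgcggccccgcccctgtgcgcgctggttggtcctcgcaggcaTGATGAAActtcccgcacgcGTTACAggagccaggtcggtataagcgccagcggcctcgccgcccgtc
PCK2: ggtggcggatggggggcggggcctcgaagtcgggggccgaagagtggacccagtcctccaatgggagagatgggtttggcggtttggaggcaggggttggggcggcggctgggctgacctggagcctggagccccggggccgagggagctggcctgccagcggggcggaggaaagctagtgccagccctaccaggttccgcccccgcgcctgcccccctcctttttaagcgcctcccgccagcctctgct
CBS: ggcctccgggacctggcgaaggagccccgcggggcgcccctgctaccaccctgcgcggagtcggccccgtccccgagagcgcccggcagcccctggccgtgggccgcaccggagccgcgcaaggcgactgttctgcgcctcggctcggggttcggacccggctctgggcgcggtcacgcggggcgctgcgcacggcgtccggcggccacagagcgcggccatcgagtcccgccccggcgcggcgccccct
The ASNS window holds TGATGAAA from 68 to 61 bases before the start and GTTACA from 48 to 43 bases before it, both on the strand of the gene. Both strands were searched, in windows that run to 50 bases past the start, and the 2 elements do not overlap. Neither element matched in the 1 window of PCK2 or in the 3 windows of CBS. TGATGNAA matched in 4.46% of the 27305 genes with windows, and GTTACA in 8.07%. Of the 37 other response targets with windows, 17 held TGATGNAA and 2 held GTTACA. The looser TGATGNA, which holds every TGATGNAA match, was found in 12.1% of genes and again in neither PCK2 nor CBS. These matches describe letters in a window and say nothing of binding.

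In the GENCODE 29 annotation on GRCh38, ASNS runs from 97852118 to 97872542 of chromosome 7, PCK2 from 24094053 to 24110598 of chromosome 14, and CBS from 43053191 to 43076943 of chromosome 21. PCK2 overlaps NRL, a gene on the other strand that had 1 to 14 UMIs per library over both tables, and the sources used here do not say whether counting used strand. ASNS overlaps AC079781.5 on its own strand and AC005326.1 on the other, and neither is listed in the tables. CBS has a near-identical copy, CBSL, elsewhere on chromosome 21. The transcripts CBS-203 and CBSL-206 differ at 1 of 2453 bases, and CBSL is not listed in either table, so the CBS counts are uncertain: how reads of the pair were assigned was not tested.

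Libraries held 1816599 to 4656705 UMIs in the day 3 and day 7 table and 2573290 to 5567651 in the day 7 table, with 11 libraries in each and 7 in both. The targeted gene, IDH1, stood at 35.5 ± 4.54 CPM (UMIs scaled to a common library total with TMM) in day 7 b2 libraries (SD, n = 4) and 31.4 ± 4.48 CPM in untreated b2 libraries (SD, n = 3). It stood at 43.3 CPM in the day 7 b1 library and 35.7 ± 0.817 CPM in untreated b1 libraries (SD, n = 3). Its day 7 change did not pass the test within b2 (edgeR adjusted p = 0.288) or within b1 (edgeR adjusted p = 0.424). MARS-seq counts 3′ ends, and since the 3′ sequence of the induced gene is unknown here, these counts do not check the induction. Of 10 astrocyte markers, SLC1A3, S100B, SOX9, GJA1 and NDRG2 are listed, with a sum of 81.0 to 120.3 CPM, unscaled by TMM, in the day 3 and day 7 table. Most of that sum was GJA1 (38.4 to 67.3 CPM) and SOX9 (19.4 to 52.2). SLC1A3 (2.71 to 6.31), NDRG2 (3.16 to 9.70) and S100B (0.308 to 1.83) were low. GFAP, AQP4, ALDH1L1, SLC1A2 and FABP7 are not listed in either table.

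ASNS was the member with the largest fold difference between untreated and treated b2 libraries. It stood at 118, 133 and 129 CPM in the untreated libraries, on 397, 597 and 297 UMIs. At day 3 it stood at 37.7, 34.0, 35.1 and 33.6 CPM, and at day 7 at 25.6, 29.5, 26.3 and 29.7 CPM, on 67 to 124 UMIs. The 3 groups did not overlap, and every day 7 library was below every day 3 library. The share of all genes that separate in this way is not given here, for this or the other members. Nothing is read from the separation, since these libraries chose the members. The means were 126.7 ± 7.73 CPM untreated (SD, n = 3), 35.1 ± 1.87 CPM at day 3 (SD, n = 4) and 27.8 ± 2.12 CPM at day 7 (SD, n = 4). Against untreated, the log2 change of ASNS was -1.86 ± 0.10 at day 3 and -2.19 ± 0.10 at day 7 (SE), a fitted level 4.57-fold lower at day 7.

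PCK2 was also lower in treated libraries. The untreated libraries had 90.4, 87.1 and 94.8 CPM of PCK2, the day 3 libraries 36.1, 27.8, 30.6 and 35.5 CPM, and the day 7 libraries 28.2, 27.1, 21.2 and 24.8 CPM. Untreated libraries stood apart from both treated groups, while the lowest day 3 library lay inside the day 7 range. Its means were 90.8 ± 3.87 CPM untreated (SD, n = 3), 32.5 ± 3.99 CPM at day 3 (SD, n = 4) and 25.3 ± 3.10 CPM at day 7 (SD, n = 4). The log2 change was -1.49 ± 0.11 at day 3 and -1.85 ± 0.11 at day 7 (SE), a fitted level 3.61-fold lower at day 7. PCK1, the cytosolic form of the enzyme, is not listed in either table.

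CBS had the smallest change of the members. Its untreated libraries had 98.5, 109.4 and 100.02 CPM, its day 3 libraries 61.4, 50.1, 60.8 and 56.9 CPM, and its day 7 libraries 56.1, 57.0, 52.0 and 55.8 CPM. Every untreated library was above every treated library, and the day 3 and day 7 libraries overlapped throughout. The means were 102.6 ± 5.90 CPM untreated (SD, n = 3), 57.3 ± 5.21 CPM at day 3 (SD, n = 4) and 55.2 ± 2.21 CPM at day 7 (SD, n = 4). CBS had a log2 change of -0.85 ± 0.09 at day 3 and -0.90 ± 0.09 at day 7 (SE), a fitted level 1.87-fold lower at day 7.

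**Figure D1:**
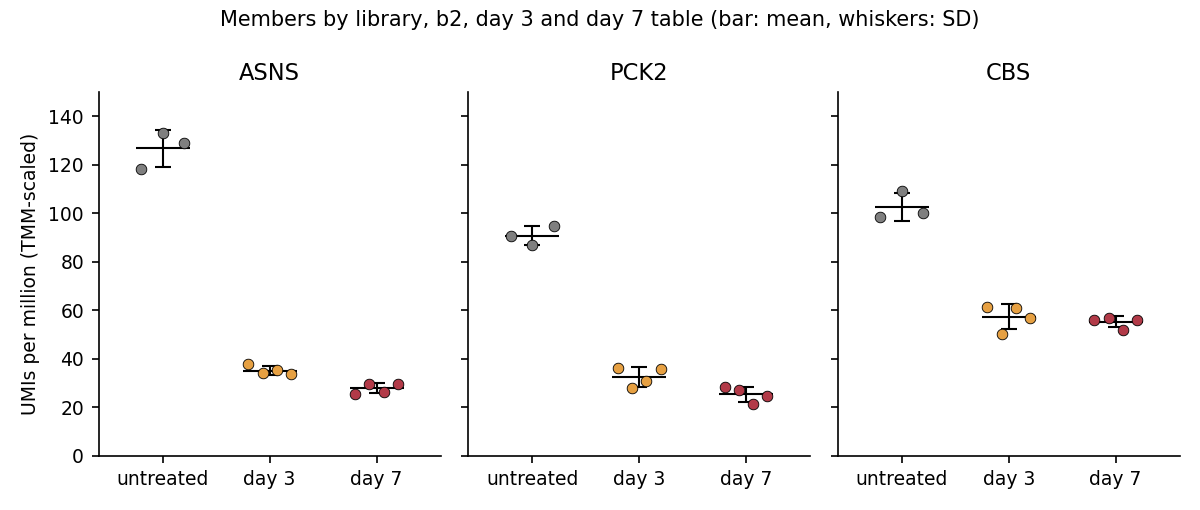
ASNS, PCK2 and CBS in each b2 library of the day 3 and day 7 table, in TMM-scaled CPM, for untreated (n = 3), day 3 (n = 4) and day 7 (n = 4), with means and SD. The untreated libraries lie at 87.1 CPM or more and all treated libraries at 61.4 CPM or less.

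Most of the distance between untreated and day 7 had been covered at day 3. The day 3 mean stood at 92.6% of that distance for ASNS, at 89.0% for PCK2 and at 95.6% for CBS. Between day 3 and day 7 the further log2 change was -0.33 ± 0.11 for ASNS, -0.37 ± 0.12 for PCK2 and -0.05 ± 0.09 for CBS (SE). With edgeR's quasi-likelihood test at an adjusted p under 0.05, 3 of 3 members counted as lower at day 7, where 7.31% of the 10586 genes tested were lower and 8.27% higher. At day 3, 3 of 3 counted as lower, beside 1.67% of all genes lower and 1.84% higher. Between day 7 and day 3, 0 of 3 passed in edgeR or in DESeq2, beside 2.31% lower and 2.76% higher. These contrasts chose the members, so nothing is read from the members' counts.

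The 3 genes differed in how far they moved, which ratios within a library show without any scaling. There were 0.810 ± 0.0315 CBS UMIs per ASNS UMI in untreated libraries (SD, n = 3), 1.63 ± 0.114 at day 3 (SD, n = 4) and 1.99 ± 0.137 at day 7 (SD, n = 4). The untreated libraries gave 0.774 to 0.834 and the treated libraries 1.47 to 2.19, so the groups with and without doxycycline did not overlap. The same libraries chose the members, so this too is a description. ASNS UMIs per PCK2 UMI were 1.40 ± 0.115 untreated (SD, n = 3), 1.09 ± 0.121 at day 3 (SD, n = 4) and 1.11 ± 0.149 at day 7 (SD, n = 4), with day 7 libraries from 0.908 to 1.24 and untreated ones from 1.31 to 1.53. Within a group the spread of each member was near that of counting alone, with a chi-square per degree of freedom of 0.202 to 1.72 over the members and groups of this table.

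Of the 3 genes, PCK2 alone could be followed in the b1 samples, where its day 7 change did not pass the test. In the day 7 table PCK2 stood at 22.9, 22.3, 17.0 and 20.7 CPM in day 7 b2 libraries and at 72.8, 70.2 and 75.3 CPM in untreated b2 libraries. With the b1 tag it stood at 24.2 CPM in the day 7 library, on 61 UMIs, and at 28.0, 18.2 and 24.3 CPM in the untreated libraries, on 47 to 115 UMIs. The untreated b2 libraries stood alone, and the day 7 libraries of both tags lay near or within the range of the untreated b1 libraries. The group means were 20.7 ± 2.64 CPM at day 7 in b2 (SD, n = 4), 72.8 ± 2.55 CPM untreated in b2 (SD, n = 3) and 23.5 ± 4.94 CPM untreated in b1 (SD, n = 3).

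The b2 libraries in these values are among those that chose PCK2, so its differences between the tags are descriptions, without a test. Without doxycycline, the log2 difference of PCK2 between b2 and b1 was 1.60 ± 0.13 (SE), and 22.5% of the 13371 genes tested in the day 7 table were higher and 21.8% lower in untreated b2 than in untreated b1 libraries. Within b2 its day 7 change was -1.83 ± 0.12 (SE), where 6.94% of genes were lower and 7.37% higher. Within b1, which shares no library with the day 3 and day 7 table, its day 7 change was 0.013 ± 0.23 (SE, 95% interval -0.45 to 0.48, edgeR adjusted p = 0.985), beside 3.38% of genes lower and 3.56% higher. This arm has 1 day 7 library, whose spread is assumed to be like that of the other groups. The difference of the day 7 change, b2 minus b1, was -1.84 ± 0.27 (SE), and is nearly all the b2 change. Over all genes 1.02% passed the test of that difference as lower and 1.42% as higher. Whether ASNS and CBS differ by tag cannot be read from these counts.

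**Figure D2:**
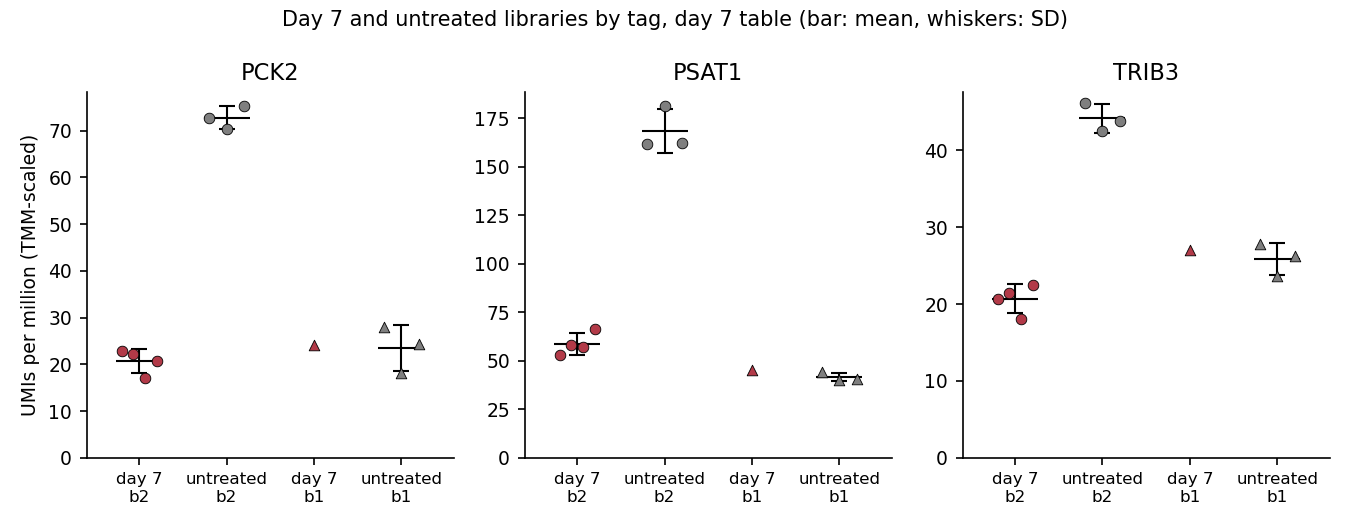
PCK2, and PSAT1 and TRIB3, the 2 genes most like it, in each library of the day 7 table, in TMM-scaled CPM, for day 7 b2 (n = 4), untreated b2 (n = 3), day 7 b1 (n = 1) and untreated b1 (n = 3), with mean and SD where n is over 1. In each panel the untreated b2 libraries stand above all others, and PCK2 lies between 70.2 and 75.3 CPM in them.

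The tags differed in other ways, whose part in the PCK2 difference was not tested. Of 4 markers of fibroblasts and pericytes, PDGFRB and COL1A1 are listed, and their sum was 192 to 285 CPM in day 7 b2, 270 to 297 in untreated b2, 806 in day 7 b1 and 726 to 818 in untreated b1 libraries. The defining markers DCN and LUM are not listed. The astrocyte sum was 97.0 to 101.1 CPM in day 7 b2, 69.0 to 98.9 in untreated b2, 71.9 in day 7 b1 and 91.4 to 97.6 in untreated b1 libraries. The other marker sums were low. For neurons, on SYT1 and SNAP25, they were 10.8 to 14.2 CPM in day 7 b2 and 15.4 to 17.8 in untreated b2 libraries. With b1 they were 9.75 at day 7 and 11.3 to 13.1 untreated, so untreated b2 libraries were highest in the day 7 table. They were not highest in the day 3 and day 7 table. There the neuron sum was 9.71 to 10.2 CPM untreated, 6.59 to 8.59 at day 3 and 8.31 to 11.9 at day 7. The microglial sum in the day 7 table, on CSF1R alone, was 1.46 to 2.51 CPM in day 7 b2 and 0.190 to 1.00 in untreated b2 libraries. With b1 it was 3.61 at day 7 and 1.33 to 3.09 untreated. In the day 3 and day 7 table, untreated (0.229 to 1.20) and day 3 (0.452 to 2.20) libraries overlapped, and day 7 libraries had 1.73 to 3.22. For oligodendrocytes, on MBP alone, the sum in the day 7 table was 9.55 to 10.2 CPM in day 7 b2 and 14.3 to 15.3 in untreated b2 libraries. With b1 it was 13.4 at day 7 and 15.3 to 18.3 untreated. In the day 3 and day 7 table, all b2, the oligodendrocyte sum was 14.9 to 15.3 CPM untreated, 9.54 to 14.4 at day 3 and 9.54 to 11.1 at day 7. Untreated libraries were thus above treated ones within b2. In the untreated b1 libraries the chi-square per degree of freedom of PCK2 was 3.13. In bulk samples, fewer cells of a type and less RNA per cell cannot be told apart.

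The genes whose pattern over the 11 b2 libraries was most like a member's were found by the root mean square (RMS) difference of log2 CPM, each gene centred on its own mean, over the 6271 genes that averaged 20 CPM or more. PSAT1, the aminotransferase of serine synthesis, came closest to both ASNS (RMS difference 0.25) and PCK2 (0.25). ASNS and PCK2 differed from each other by 0.21, and CBS from ASNS by 0.53 and from PCK2 by 0.39. PSAT1 stood at 199.9 ± 13.1 CPM untreated (SD, n = 3), 63.4 ± 3.13 CPM at day 3 (SD, n = 4) and 67.0 ± 5.75 CPM at day 7 (SD, n = 4). TRIB3, a pseudokinase induced by ATF4, was among the 4 closest genes of ASNS (0.44), PCK2 (0.29) and CBS (0.14). It stood at 54.6 ± 2.49 CPM untreated (SD, n = 3), 25.6 ± 3.49 CPM at day 3 (SD, n = 4) and 25.0 ± 2.20 CPM at day 7 (SD, n = 4). SERPING1, the C1 inhibitor of complement, was among those of ASNS (0.43) and PCK2 (0.32), COL1A2, a collagen chain, among those of ASNS (0.48), and TSTD1 among those of PCK2 (0.39). Over all genes compared, the median difference was 0.93 from ASNS, 0.78 from PCK2 and 0.43 from CBS.

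PHGDH was the gene closest to CBS. This enzyme, which commits 3-phosphoglycerate to serine, differed from CBS by 0.0955, followed by CARS, the cysteinyl-tRNA synthetase (0.13), TRIB3 and APOE, a lipid carrier of astrocytes (0.15). PHGDH stood at 412 ± 7.98 CPM untreated (SD, n = 3), 248 ± 11.8 CPM at day 3 (SD, n = 4) and 232 ± 16.4 CPM at day 7 (SD, n = 4). The libraries share depth and the untreated samples, so these distances describe this table only.

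**Figure D3:**
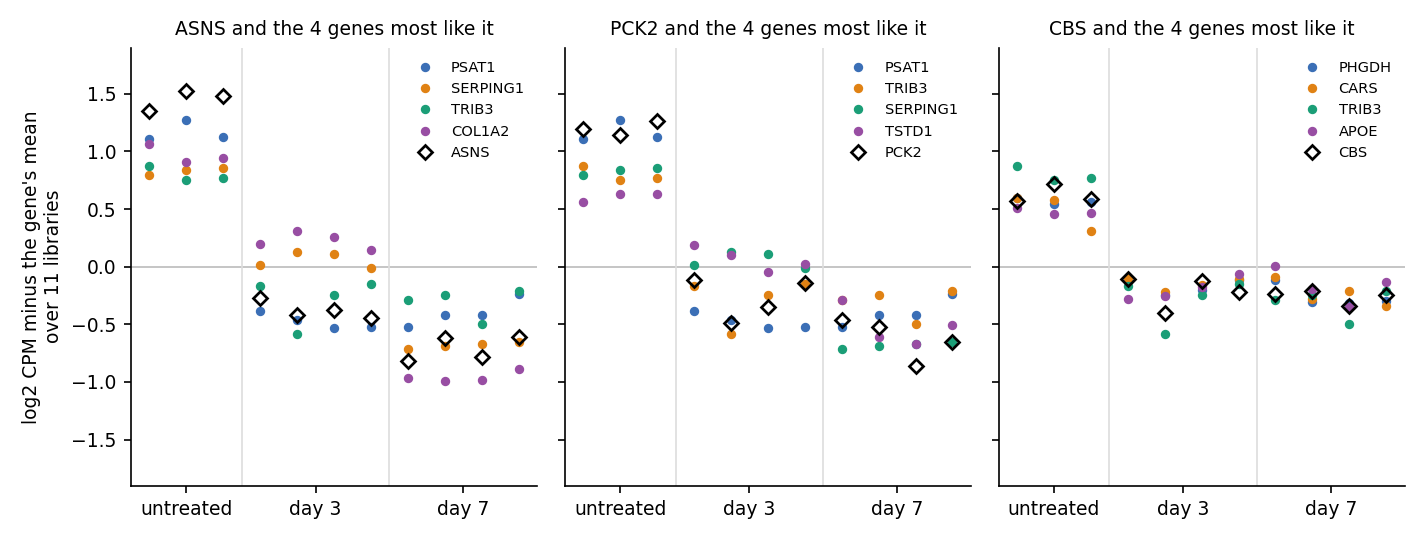
Centred log2 CPM of ASNS, PCK2 and CBS (open diamonds) and of the 4 genes most like each (dots) in the 11 b2 libraries, ordered as untreated, day 3 and day 7. PSAT1 follows ASNS and PCK2, and PHGDH follows CBS with an RMS difference of 0.0955.

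Among other targets of the amino acid response, most of those that passed the test were lower after doxycycline. The list holds 48 symbols without the members and was drawn up with results of these data known, so its count is not independent evidence of its direction. At day 7, 27 of the 45 tested were lower (60.0%, against 7.31% of all genes) and 1 higher, with a median log2 change of -0.40 against 0.0077 over all genes. At day 3, 25 were lower (55.6%, against 1.67%) and 1 higher, with a median of -0.47 against 0.0050. NUPR1, a stress-induced chromatin factor, fell by 1.82 ± 0.17 at day 3 and by 2.49 ± 0.17 at day 7 on the log2 scale (SE), PSAT1 fell by 1.66 ± 0.09 and by 1.58 ± 0.08, and PHGDH fell by 0.74 ± 0.07 and by 0.83 ± 0.07. GARS, the glycyl-tRNA synthetase, fell by 1.00 ± 0.07 at day 3 and by 0.78 ± 0.07 at day 7. The exception at both times was VEGFA, a growth factor of blood vessels, which rose by 0.59 ± 0.09 at day 3 and by 0.84 ± 0.09 at day 7. At day 7 against day 3, 2 of the 45 were lower (ATF3 and CHAC1) and 2 higher (TARS and STC2), and each of these 4 calls was lost in 5 or more of the 11 fits that left out 1 library. DESeq2 gave 1 higher and 0 lower.

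The list of sensors and regulators upstream of these targets has 15 tested genes. At day 3, 0 of 15 passed in edgeR or in DESeq2, with 4 at an unadjusted p under 0.05 in edgeR, and the median log2 change was 0.12. At day 7, 2 were lower and 2 higher in edgeR (13.3% each way, against 7.31% and 8.27% of all genes), and 1 and 1 in DESeq2. At day 7, ATF4 itself fell by 0.24 ± 0.07 on the log2 scale (SE, edgeR adjusted p = 0.0123), with 312 ± 4.51 CPM at day 7 (SD, n = 4) against 369 ± 4.36 CPM untreated (SD, n = 3). EIF2B2, a subunit of the exchange factor eIF2B, rose by 0.35 ± 0.08 (SE). EIF2AK2, the kinase that senses double-stranded RNA, had a log2 change of -0.86 and EIF2B5 of 0.36, and these 2 calls were lost with DESeq2 and in 5 and 6 of the 11 fits that left out 1 library. EIF2AK2 averaged 10.3 CPM in the untreated libraries of this table and 37.8 CPM in the untreated b2 libraries of the day 7 table. There its day 7 change was -0.56 ± 0.13 within b2 (SE, edgeR adjusted p = 0.00448). Within b1, on 1 day 7 library, it was -1.06. At day 7 against day 3, 0 of 15 passed in edgeR or in DESeq2, with 1 at an unadjusted p under 0.05 in edgeR. In the day 7 table, the day 7 change of ATF4 within b2 was -0.22 ± 0.07 (SE). That call was lost in 5 of the 11 fits that left out 1 library. With b1, ATF4 was higher at day 7, at 287 CPM in the 1 library against 240 ± 11.6 CPM untreated (SD, n = 3).

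The lists around ASNS and PCK2 had shares near those over all genes, 7.31% lower and 8.27% higher at day 7. Of 18 tested genes of asparagine and aspartate metabolism, 2 were lower and 2 higher at day 7 (11.1% each way, median log2 change 0.07). ADSL, adenylosuccinate lyase, rose by 0.32 ± 0.07 and CAD, which starts pyrimidine synthesis from aspartate, fell by 0.29 ± 0.08 on the log2 scale (SE). The calls of the aspartate aminotransferases GOT1 (-0.30) and GOT2 (0.26) were lost in 3 and 1 of the 11 fits that left out 1 library. At day 3 ASS1 (0.51) was higher and NARS (-0.31) lower, and these calls were lost in 3 and 5 such fits. Of 13 tested genes around phosphoenolpyruvate, pyruvate and malate, SUCLG1 (0.30) was higher and SUCLG2 (-0.35) lower at day 7 (7.69% each way), calls lost in 3 and 4 such fits, and at day 3 the enolase ENO2 was higher by 0.36 ± 0.08 (SE), which was lost without untreated b2-1 (0.31, edgeR adjusted p = 0.0533).

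Of 21 tested genes of the methionine cycle, transsulfuration and glutathione, 5 were lower (23.8%, against 7.31% of all genes) and 1 higher at day 7 in edgeR, and 2 lower and 0 higher in DESeq2, with a median log2 change of -0.07 and 10 at an unadjusted p under 0.05 in edgeR. BHMT2, a homocysteine methyltransferase, fell by 1.52 ± 0.31 on the log2 scale (SE), with 2.54 ± 1.06 CPM at day 7 (SD, n = 4) against 7.47 ± 2.21 CPM untreated (SD, n = 3). CTH, cystathionine gamma-lyase, the enzyme after CBS, stood at 2.32 ± 0.483 CPM at day 7 (SD, n = 4) against 5.30 ± 0.731 CPM untreated (SD, n = 3), and its fitted log2 difference of -1.20 ± 0.31 passed (SE, edgeR adjusted p = 0.00735). CTH no longer passed without untreated b2-2 (edgeR adjusted p = 0.0615) or with DESeq2. CHAC1, which breaks down glutathione, fell by 0.80 ± 0.17 (SE), and AHCYL1 (-0.23), chosen after its values were seen, passed in edgeR but not in DESeq2. The calls of CSAD (-0.57) and MTRR (0.42) were lost in 2 and 5 of the 11 fits that left out 1 library. At day 3, BHMT2 alone passed, and lost its call in 4 such fits.

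**Figure D4:**
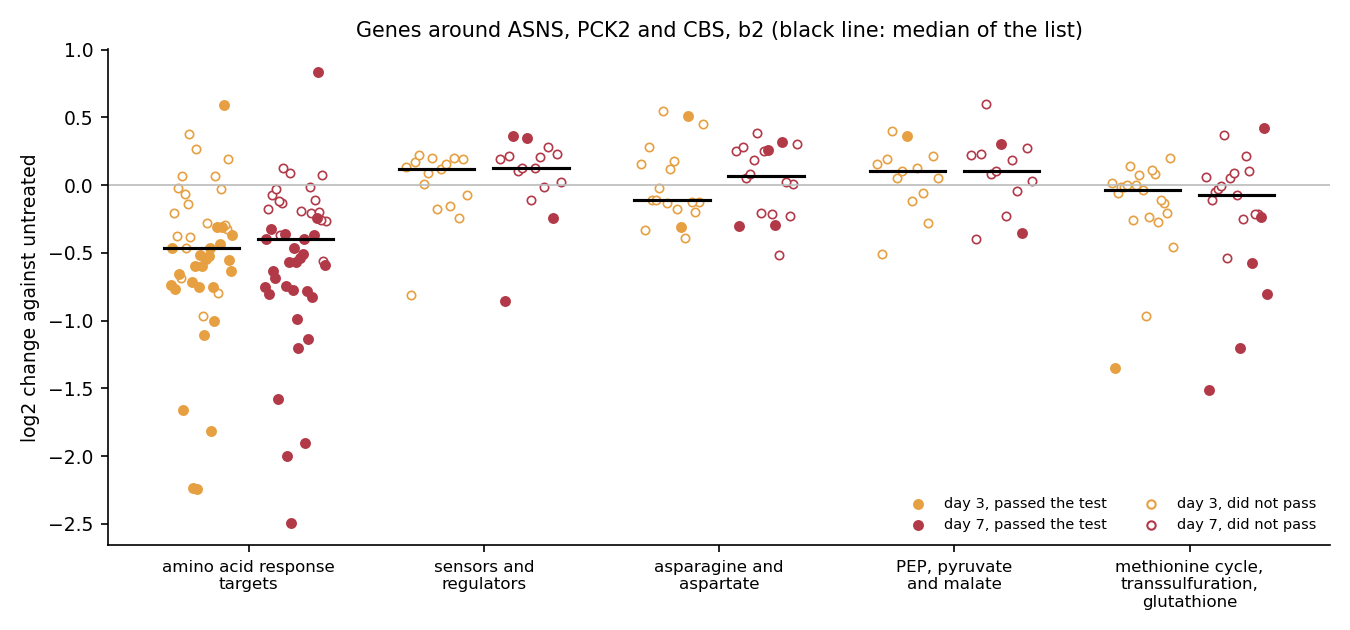
Log2 change against untreated at day 3 and day 7 in b2 libraries for each tested gene of the 5 lists around ASNS, PCK2 and CBS. Filled points passed edgeR's test, open points did not, and black lines are medians. The median of the amino acid response targets lies at -0.47 at day 3 and -0.40 at day 7, and the other medians lie between -0.11 and 0.13.

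The response targets were also read by tag in the day 7 table. Of 47 tested, 27 were higher (57.4%, against 22.5% of all genes) and 5 lower (10.6%, against 21.8%) in untreated b2 than in untreated b1 libraries, with a median log2 change of 0.31 against 0.01 over all genes. Within b2, 27 were lower (57.4%, against 6.94%) and 1 higher at day 7 (median -0.40), and within b1, 3 were lower (6.38%, against 3.38%) and 2 higher (4.26%, against 3.56%), with a median of -0.12. The difference of the day 7 change, b2 minus b1, passed as lower for 9 (19.1%, against 1.02%) and as higher for 0 (edgeR, with 23 at an unadjusted p under 0.05 in either direction, and 10 lower and 0 higher in DESeq2), with a median of -0.39 against 0.02 over all genes. These comparisons share the untreated b2 libraries, and the 9 include PSAT1, PHGDH and TRIB3, picked for likeness to members over b2 libraries. Other lists also differed between untreated b2 and untreated b1 libraries. Of the methionine cycle, transsulfuration and glutathione genes, 42.9% were higher and 9.52% lower in b2. Around phosphoenolpyruvate, pyruvate and malate, 15.4% were higher and 46.2% lower. The asparagine and aspartate list had 26.3% higher and 21.1% lower, and the regulators 20.0% and 26.7%.

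PSAT1 and TRIB3, picked for their likeness to PCK2 over b2 libraries, are described without a test. PSAT1 had a difference of the day 7 change, b2 minus b1, of -1.64 ± 0.19 on the log2 scale (SE). It stood at 58.7 ± 5.60 CPM in day 7 b2 (SD, n = 4), 168 ± 11.3 CPM in untreated b2 (SD, n = 3), 45.2 CPM in day 7 b1 and 41.5 ± 2.22 CPM in untreated b1 libraries (SD, n = 3). TRIB3 stood at 20.7 ± 1.89 CPM in day 7 b2 (SD, n = 4), 44.1 ± 1.87 CPM in untreated b2 (SD, n = 3), 27.0 CPM in day 7 b1 and 25.9 ± 2.08 CPM in untreated b1 libraries (SD, n = 3), and its difference was -1.15. As with PCK2, both were highest in untreated b2 libraries. The day 7 b2 libraries lay above all b1 libraries for PSAT1 and below them for TRIB3. SHMT2, the mitochondrial serine hydroxymethyltransferase, did otherwise: it stood at 119 ± 9.43 CPM in day 7 b2 (SD, n = 4), 186 ± 8.79 CPM in untreated b2 (SD, n = 3), 208 CPM in day 7 b1 and 191 ± 7.22 CPM in untreated b1 libraries (SD, n = 3).

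**Figure D5:**
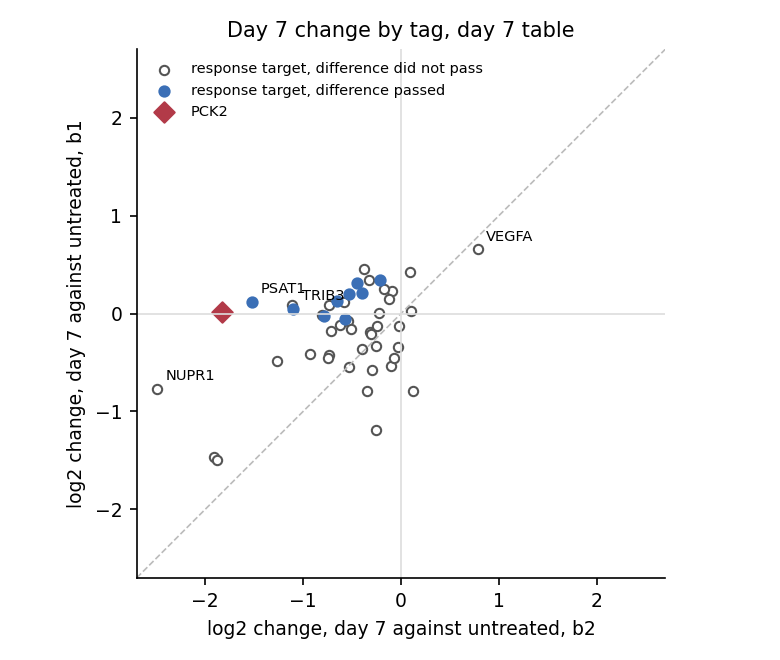
Log2 change at day 7 against untreated in b2 (x axis) and in b1 (y axis) for PCK2 and the 47 tested response targets of the day 7 table. The dashed line marks equal changes, and blue points passed the test of the difference. PCK2 lies at -1.83 in b2 and 0.013 in b1, and VEGFA rose in both.

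The same libraries gave near-equal PCK2 counts in both tables but not ASNS counts. PCK2 had 85, 77, 97 and 93 UMIs in the day 7 b2 libraries of the day 7 table and 87, 78, 100 and 95 in the other. ASNS had 2, 3, 4 and 1 UMIs in those libraries in the day 7 table and 79, 85, 124 and 114 in the other, and 6, 8 and 4 against 397, 597 and 297 in the untreated b2 libraries. Why the tables differ was not tested, and every value of ASNS and CBS rests on the day 3 and day 7 table alone.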

How the data were processed

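Bulk MARS-seq, which counts 3′ ends of transcripts, was read from 2 tables of UMI counts, whole numbers per gene and library that the authors deposited without normalization in the columns used here. Per the labels' protocols, 30 ng of RNA per sample was barcoded, pooled and amplified by T7 transcription. Per the submitters' processing notes, bcl2fastq, cutadapt, STAR 2.4.2a, HTSeq and DESeq2 were used with hg38. No listed gene has a highest count below 6. Columns X1 and X2 of the day 3 and day 7 table match the descriptions of a b1 and a b2 sample each, and were read as b2 because the untreated columns are X1, X2 and X4, the numbers found in b2. A further 55 columns of per-sample values were not used.

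Each table was fitted alone with edgeR 4.0.16 (R 4.3.3): filterByExpr, TMM, robust quasi-likelihood test, Benjamini-Hochberg adjustment over all genes tested, threshold 0.05. The model held a mean for each group and, in the data with both tags, for each group and tag. Limits of PCK2 changes are 95% intervals. CPM are TMM-scaled, and log2 CPM had a prior count of 2. Pairs of libraries of the same group differed by 1.59 to 7.06 times counting noise (chi-square per degree of freedom, 27 pairs), so none was merged. Alternatives were DESeq2 1.42.0, DESeq2's size factors, library size alone, no filter, a replicate block, no tag term, b2 alone and leaving out each library. The b1 change, set beside these after the data were seen, is from the fit with a mean for each group and tag.

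The members and the gene lists were chosen with earlier results of these data known. Named genes were the members, IDH1, the 4 genes most like each member and up to 5 called genes with the smallest p per list and comparison. The result for 1 further gene named by this rule is not reported here. Older symbols (GARS, CARS) were matched through RefSeq synonyms. CHAC1, CTH and NARS stand in more than 1 list. Promoter windows are from RefSeq. Of the other marker lists, neurons had 2 of 5 markers listed, microglia 1 of 5, oligodendrocytes 1 of 4 and endothelium 0 of 3. Plots used Python 3.11.15 and matplotlib 3.10.9.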

Additional observations from a re-analysis of the deposited data

Results flagged for a closer look

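The day 7 change was tested for a difference between the tags, and results that passed are listed here. PCK2 is not among them, since b2 libraries chose it. Among the neighbour genes named by the rule, the difference b2 minus b1 was -1.64 for PSAT1, -0.78 for SHMT2, -0.73 for MARS1, -0.76 for SLC1A5, -0.76 for PHGDH and -0.48 for ATF4. PSAT1 (-1.64) and PHGDH (-0.76) were picked for their likeness to members over b2 libraries, so their differences are descriptions, without a test. The b1 side of each rests on 1 day 7 library. The call of ATF4 was lost with library size alone and in 5 of the 10 fits that left out 1 library, with differences from -0.50 to -0.43 and adjusted p up to 0.0927 in edgeR. In the 13 sets of member values and ratios checked for a library far from the others, none was found.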

How the results depend on the processing

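The changes of ASNS, PCK2 and CBS in the day 3 and day 7 table kept their direction, and moved by less than the spread between libraries, under every alternative run. For PCK2 in the day 7 table, the tag-adjusted log2 change at day 7 of -1.45 became -1.18 without the tag term, -1.22 with DESeq2 and -1.81 within b2 alone. The fit of the day 3 and day 7 table, which holds no b1 library, gave -1.85. Within b1, as estimated in the fit of all libraries of the day 7 table, the day 7 change was 0.013 ± 0.23 (SE). This estimate of the other sign has a 95% interval of -0.45 to 0.48, which includes 0. When 1 library was left out, the tag-adjusted change ranged from -1.82 (without day 7 b1-13) to -1.31 (without day 7 b2-19). The paired fit with a replicate block, over the numbers 1 and 2 that untreated b2 and b1 samples share, gave PCK2 a log2 difference of 1.59 and 5175 genes called in place of 5918. When 1 library was left out, the PCK2 difference ranged from 1.47 to 1.74 between untreated b2 and b1, and from -1.98 to -1.72 for the day 7 change, b2 minus b1. Both use the libraries that chose PCK2. Whether a shared number marks a shared culture is not stated.

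Counts of genes called moved by over 1.5 times when 1 library was left out. At day 7, 1649 genes became 1089 without untreated b2-2, over a range of 1089 to 1915. At day 3, 372 became 578 without day 7 b2-17, 229 and 228 without day 3 b2-10 and b2-12, and 213, 191 and 207 without untreated b2-1, b2-2 and b2-4. For the difference between tags, 326 became 687 without day 7 b2-17, 205 without untreated b2-2, and 195 and 216 without untreated b1-2 and b1-3. Of 98 results for named neighbour genes, 35 lost their call in some alternative, 147 of 1476 values in all, and none reversed. With a minimum mean of 50 CPM, 2 of the 4 genes most like ASNS, and 2 of those most like PCK2, remained.

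A doxycycline control without the inducible gene is not among the samples, b1 has 1 day 7 library, and day 3 was sampled in b2 alone. CBS shares its sequence with CBSL. Poisson intervals on 47 to 597 UMIs cover counting error only.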
